A study of Homo sapiens with 24 samples.

Results

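HLA-B, HLA-C, HLA-E, HLA-F, HLA-G, B2M and NLRC5 were followed in A549, a cell line from a human lung adenocarcinoma, after interferon beta and after knockdown of BOP1. The 7 genes were chosen by name, as 5 heavy chains of HLA class I, their shared light chain and their transactivator, and all 7 were found among the 60609 gene rows of the deposited table. Every member passed the filter on low values (at least 1 TPM in at least 3 libraries; TPM is a transcript's length-corrected share of its library, scaled to the same total in each), as did 16062 genes in all.

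Cells were transfected for 48 h with an siRNA pool against BOP1 (siBOP1) or with an siRNA against firefly luciferase (siFLuc), an insect gene. Interferon beta (IFN, 1000 U/mL) or mock medium followed for 8 or 12 h, which gives 8 groups of 3 libraries. Every group was a transfected culture of the same line, so no untransfected cells serve as a reference, and knockdown was partial. The labels do not say whether the libraries of a group came from separate cultures, so p-values measure only the spread between these libraries.

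Class I molecules display peptides from inside the cell to CD8 T cells and to natural killer cell receptors. A complete molecule joins a heavy chain, a peptide and beta-2-microglobulin, which B2M encodes. HLA-B and HLA-C are classical, highly polymorphic heavy chains, while HLA-E, HLA-F and HLA-G vary little between people, and HLA-E and HLA-G are best known as ligands of inhibitory receptors. NLRC5 is an interferon-inducible NLR protein that binds no DNA itself and joins the RFX, CREB/ATF and NF-Y factors assembled on the SXY module of class I and B2M promoters. Upstream of that module lie, in the textbook promoter, an NF-kappa B site and an interferon-stimulated response element, which IRF proteins bind. BOP1, the knocked-down gene, encodes a nucleolar protein of the PeBoW complex, which acts in the processing of ribosomal RNA.

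Promoter sequences are shown because these 7 genes moved together with IFN and the class I promoter is built from the elements just named. RefSeq promoter windows (GRCh38.p14) of 300 bases, from 250 before to 50 after a transcript start, matched 5 of the 7 members by symbol; HLA-E and NLRC5 had no window. Each stretch below holds 150 bases, from -190 to -41 relative to the start, 5′ to 3′ on the gene's strand. Capitals mark matches, on either strand, to an interferon response element core, a kappa B site, a CREB/ATF half-site (TGACG) or a CCAAT box. The stretches are chr6:31357220-31357369 on the minus strand for HLA-B, chr6:31272133-31272282 on the minus strand for HLA-C, chr6:29723244-29723393 on the plus strand for HLA-F, chr6:29827635-29827784 on the plus strand for HLA-G (the last of its 3 windows) and chr15:44711327-44711476 on the plus strand for B2M.
HLA-B: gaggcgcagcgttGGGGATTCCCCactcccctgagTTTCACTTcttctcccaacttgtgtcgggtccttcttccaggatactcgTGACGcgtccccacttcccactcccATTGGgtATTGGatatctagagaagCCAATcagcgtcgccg
HLA-C: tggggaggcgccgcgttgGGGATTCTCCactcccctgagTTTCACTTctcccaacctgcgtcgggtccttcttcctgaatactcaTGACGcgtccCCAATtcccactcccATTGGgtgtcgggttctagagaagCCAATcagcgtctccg
HLA-F: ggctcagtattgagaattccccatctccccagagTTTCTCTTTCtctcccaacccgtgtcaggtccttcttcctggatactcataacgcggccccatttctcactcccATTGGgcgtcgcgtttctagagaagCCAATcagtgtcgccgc
HLA-G: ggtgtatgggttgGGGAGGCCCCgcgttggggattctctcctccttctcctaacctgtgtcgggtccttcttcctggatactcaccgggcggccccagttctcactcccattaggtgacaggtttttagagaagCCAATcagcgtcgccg
B2M: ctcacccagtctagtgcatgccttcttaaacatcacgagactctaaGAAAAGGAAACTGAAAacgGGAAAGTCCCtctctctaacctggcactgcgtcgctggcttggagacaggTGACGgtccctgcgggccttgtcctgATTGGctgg

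The response element core with letters GAAANNGAAA was found in the windows of HLA-F and B2M, and in 3.57% of all 35116 RefSeq windows. A shorter form, AANNGAAA, added after the sequences were seen and contained in the longer core, was found in HLA-B, HLA-C, HLA-F and B2M, and in 22.8% of all windows. HLA-G held neither. In HLA-B, HLA-C and HLA-F the match lies on the opposite strand and begins at -155, -151 and -156 relative to the start, so the position is nearly shared, and B2M carries 2 overlapping matches between -144 and -129. The half-site TGACG was present in HLA-B, HLA-C and B2M and in 24.6% of all windows, with no match in HLA-F or HLA-G. CCAAT, which overlaps no other motif searched, was present in all 5 windows against 34.6% of all windows. The kappa B match was present in HLA-B, HLA-C, HLA-G and B2M and in 11.3% of all windows. A further motif searched, GAS with letters TTCNNNGAA, had no match in any of the 5 windows, against 7.66% of all windows. These matches describe letters only; binding was not measured.

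**Figure D1:**
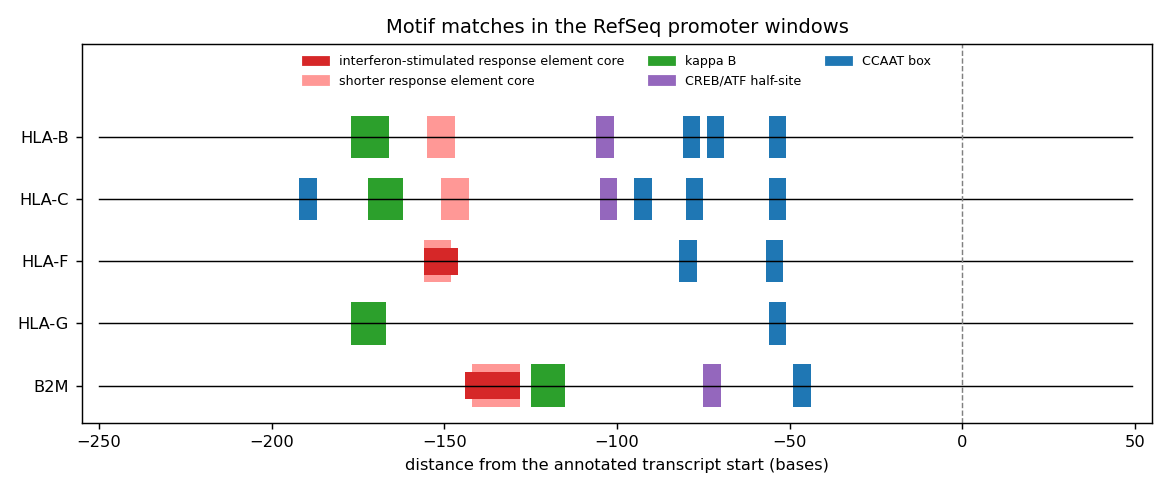
Motif matches on either strand along the RefSeq promoter window of 5 members; the x axis gives the distance in bases from the annotated transcript start (dashed line) and each coloured block is 1 match. HLA-B, HLA-C and HLA-F carry a response element match beginning between -156 and -151, HLA-G carries none, and all 5 carry a CCAAT box.

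In GENCODE 29 on GRCh38, HLA-F lies on chromosome 6 from 29722775 to 29738528, HLA-G from 29826967 to 29831125 and HLA-E from 30489467 to 30494205, all on the plus strand. HLA-C (31268749 to 31272130) and HLA-B (31269491 to 31357188) lie on the minus strand of the same chromosome, and their annotated spans overlap. B2M is on chromosome 15 (44711487 to 44718877, plus strand) and NLRC5 on chromosome 16 (56989485 to 57083531, plus strand). All 7 are protein-coding genes, and each value below is for a whole gene row. The heavy chains are close relatives, and how reads shared between them were assigned is not given in the sources used here. Of all 50-base stretches in their GENCODE 29 transcripts, 2.72% in HLA-B, 5.38% in HLA-C, 4.34% in HLA-E, 0.977% in HLA-F and 3.43% in HLA-G also occur in another gene, against 0% for B2M and NLRC5.

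BOP1 stood at 23.5% to 29.6% of its siFLuc mean in the 4 siBOP1 groups, and every siBOP1 library (at most 19.5 TPM) lay below every siFLuc library (at least 32.4 TPM). Each group comparison had an exact two-sided permutation p of 0.1, the smallest that 3 against 3 libraries allow. TPM keeps no sequencing depth, so depth is unknown; 13844 to 14509 genes per library reached 1 TPM. Column names number the libraries 1, 2 and 4, and the number 4 occurs once per group but in no label. All 5 epithelial markers were at 1 TPM or more in every library. Of 7 leukocyte markers, CD3E was listed at 0 in every library and PTPRC at no more than 0.021 TPM, while the monocyte marker CD14 was at 1.81 to 5.26 TPM in mock and 2.04 to 4.28 TPM in IFN libraries. CD68, a lysosomal protein listed as a macrophage marker, went from 38.5 to 57.5 TPM in mock libraries to 170 to 402 TPM with IFN, and the summed leukocyte list moved with it, from 43.9 to 61.1 TPM to 172 to 407 TPM. Of 5 fibroblast and endothelial markers, COL1A1, a collagen chain, was at 1 TPM or more in every library and the other 4 were under 1 TPM in every library.

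IFN raised all 7 members in each of the 4 siRNA and time settings, and no IFN group overlapped its mock group for any member. How many of all genes showed no overlap between groups was not counted, here or below. HLA-F and NLRC5 changed by the largest factors, with group means 12.9 to 18.1 times those of mock, and B2M by the smallest, 3.28 to 4.57 times. The share of all tested genes called higher with IFN was 5.77% with siFLuc and 5.99% with siBOP1 at the earlier time, and 7.06% with siFLuc and 7.17% with siBOP1 at the later time. The median log2 change of the members was 2.98, 3.15, 3.00 and 3.15 in these 4 comparisons, against -0.09, -0.06, -0.14 and -0.08 over all tested genes. Rescaling the libraries by median of ratios left all 7 called higher; over all genes it moved the split in siFLuc cells at 8 h from 927 higher and 814 lower to 1129 higher and 532 lower, and in siBOP1 cells at 8 h from 962 and 1464 to 1301 and 726. At 12 h that split went from 1134 and 1032 to 1374 and 804 in siFLuc cells, and from 1152 and 1218 to 1417 and 868 in siBOP1 cells. Fold changes below refer to log2(TPM + 1), on which changes of low genes come out too small, with limma's standard error (SE) and its Benjamini-Hochberg adjusted p over all 16062 genes. Libraries are listed in the order 1, 2 and 4. In bulk RNA, more cells carrying a transcript and more transcript per cell cannot be told apart.

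**Figure D2:**
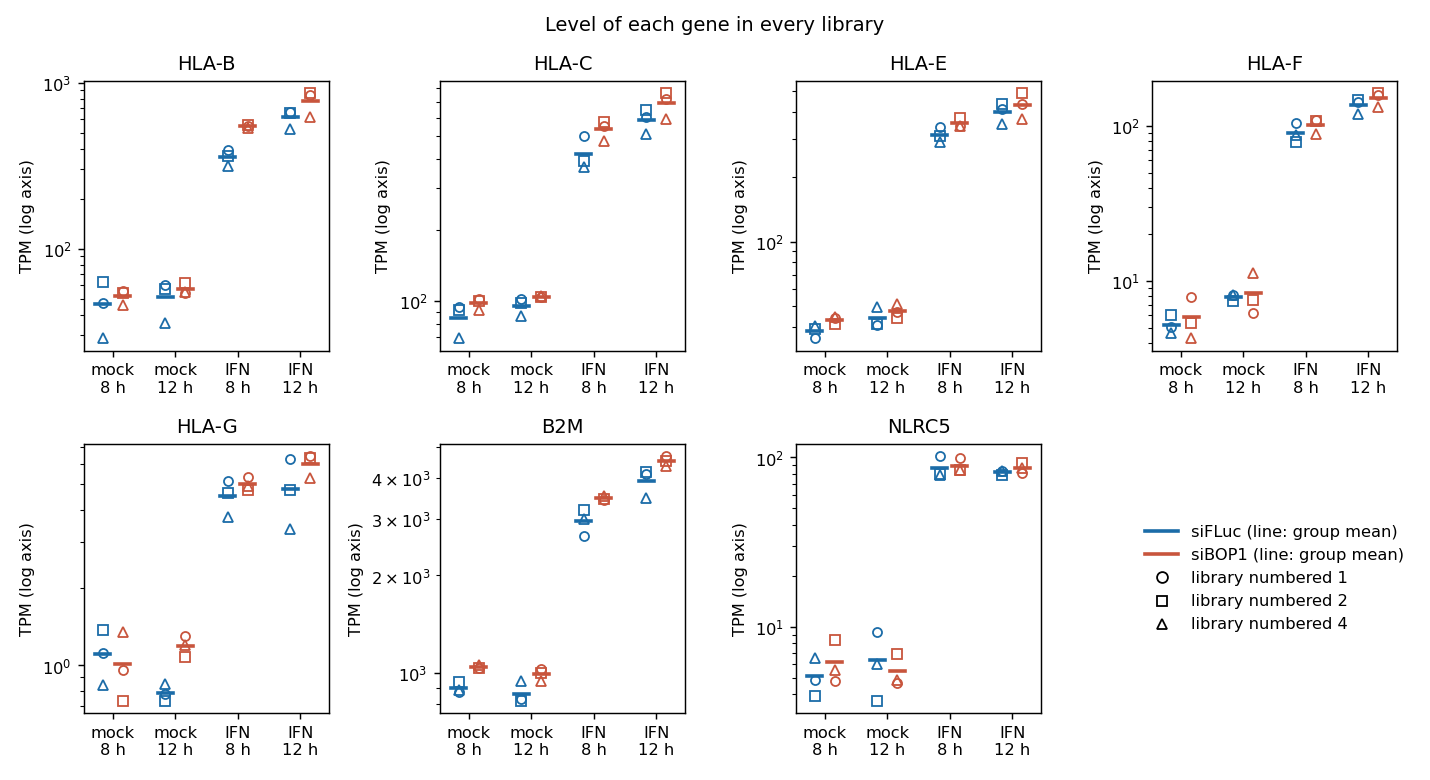
TPM of each member in all 24 libraries (log axis), by treatment and time on the x axis; colours mark the siRNA, symbols the library number and lines the mean of 3 libraries. Every IFN library lies above every mock library for all 7 genes, and siBOP1 and siFLuc libraries overlap in many panels.

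HLA-B, a classical heavy chain, was at 47.1, 62.6 and 28.7 TPM in siFLuc mock libraries at 8 h, and at 60.5, 57.4 and 35.8 TPM at 12 h. With IFN it was at 394, 361 and 314 TPM at 8 h and at 664, 660 and 526 TPM at 12 h. The library numbered 4 was the lowest of its 3 in all 4 of these groups. The log2 change with IFN was 2.98 at 8 h and 3.59 at 12 h (SE 0.21 each; limma adjusted p = 6.4e-10 and 2.6e-11). After siBOP1 the mock values were 55.8, 54.2 and 45.9 TPM at 8 h and 54.3, 61.8 and 54.7 TPM at 12 h, and the IFN values were 545, 558 and 531 TPM and 843, 863 and 617 TPM. At 8 h with IFN, the 3 siBOP1 libraries lay above all 3 siFLuc libraries, while the mock groups overlapped. The IFN change in siBOP1 cells was 3.37 at 8 h and 3.73 at 12 h (limma adjusted p = 7.3e-11 and 1.3e-11).

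HLA-C, the other classical chain measured here and a main ligand of killer cell immunoglobulin-like receptors, had the highest mock level of the 5 heavy chains. Its siFLuc mock values were 93.8, 91.3 and 69.2 TPM at 8 h and 102, 97.6 and 85.9 TPM at 12 h. IFN brought it to 501, 392 and 371 TPM at 8 h and to 606, 649 and 510 TPM at 12 h, about 4.97 and 6.19 times the mock means. The log2 changes of 2.30 and 2.61 (SE 0.13; limma adjusted p = 1.2e-11 and 1.2e-12) were the lowest among HLA-B, HLA-C, HLA-E and HLA-F. In siBOP1 cells HLA-C was at 102, 99.5 and 91.1 TPM (8 h) and 103, 104 and 104 TPM (12 h) in mock, and at 553, 578 and 480 TPM and 718, 761 and 592 TPM with IFN. These changes were 2.45 and 2.71 (limma adjusted p = 3.8e-12 and 6.1e-13), and the mock values at 12 h were the tightest of any HLA-C group (SD 0.474, n = 3).

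HLA-E, whose protein presents signal peptides of other class I chains to the CD94/NKG2A receptor, was at 35.5, 39.2 and 40.5 TPM in siFLuc mock libraries at 8 h and at 40.9, 41.2 and 49.9 TPM at 12 h. With IFN it was at 342, 311 and 289 TPM and at 411, 437 and 350 TPM. The library numbered 4 was the highest of the mock group and the lowest of the IFN group at both times. The log2 change was 3.00 at 8 h and 3.15 at 12 h (SE 0.11; limma adjusted p = 4.3e-15 and 1.8e-15). siBOP1 libraries had 44.1, 41.4 and 44.6 TPM and then 47.0, 44.1 and 51.03 TPM in mock, against 344, 376 and 345 TPM and 435, 488 and 371 TPM with IFN. The IFN changes of HLA-E in siBOP1 cells, 3.00 and 3.15, equalled those in siFLuc cells to 2 decimals (limma adjusted p = 3.8e-15 and 1.7e-15).

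HLA-F, a chain that also reaches the surface without peptide, started low and rose by the largest factor. It was at 5.08, 6.00 and 4.63 TPM in siFLuc mock libraries at 8 h and at 8.09, 7.45 and 8.12 TPM at 12 h, and the mock groups of the 2 times did not overlap. With IFN it was at 105, 78.2 and 87.7 TPM at 8 h and 143, 147 and 119 TPM at 12 h. The log2 changes were 3.87 and 3.95 (SE 0.18; limma adjusted p = 5.9e-13 and 4.4e-13). In siBOP1 cells the mock values were 7.88, 5.34 and 4.27 TPM at 8 h and 6.20, 7.50 and 11.2 TPM at 12 h, and these overlapped between the times. IFN gave 109, 107 and 88.5 TPM and 159, 162 and 131 TPM, changes of 3.94 and 4.06 (limma adjusted p = 4.2e-13 and 2.5e-13).

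HLA-G, known from the placenta and from immune tolerance, was the lowest member in all 24 libraries. In siFLuc mock libraries it was at 1.11, 1.38 and 0.844 TPM at 8 h and at 0.776, 0.728 and 0.85 TPM at 12 h. IFN gave 5.15, 4.62 and 3.75 TPM and 6.25, 4.76 and 3.36 TPM. On the log2(TPM + 1) scale its changes of 1.38 and 1.67 (SE 0.17; limma adjusted p = 4.8e-06 and 2.8e-07) were the smallest of the 7. As a ratio of mean TPM, 4.06 and 6.10, they exceeded those of B2M, so that place in the order depends on the scale. siBOP1 libraries were at 0.964, 0.732 and 1.34 TPM and 1.299, 1.08 and 1.20 TPM in mock, and at 5.34, 4.75 and 4.92 TPM and 6.44, 6.33 and 5.29 TPM with IFN, changes of 1.59 and 1.68 (limma adjusted p = 6.2e-07 and 2.6e-07). The promoter window of HLA-G shown above, the last of its 3 and the only one searched, held none of the response element letters searched. Whether that bears on its change with IFN was not tested.

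B2M, the light chain, was the highest member in all 24 libraries. It was at 870, 939 and 883 TPM in siFLuc mock libraries at 8 h and at 828, 818 and 943 TPM at 12 h. With IFN it reached 2646, 3191 and 2988 TPM and then 4116, 4164 and 3464 TPM. The log2 changes were 1.71 and 2.18 (SE 0.08; limma adjusted p = 2.5e-13 and 4.1e-15). siBOP1 cells had 1034, 1036 and 1056 TPM at 8 h and 1026, 996 and 944 TPM at 12 h in mock, and 3418, 3457 and 3510 TPM and 4681, 4522 and 4346 TPM with IFN. Their changes of 1.73 and 2.19 (limma adjusted p = 2.0e-13 and 3.7e-15) differed from those of siFLuc cells by 0.02 and 0.01.

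NLRC5, the transactivator, was at 4.86, 3.92 and 6.53 TPM in siFLuc mock libraries at 8 h and at 9.29, 3.64 and 6.07 TPM at 12 h. IFN took it to 102, 79.6 and 78.7 TPM at 8 h and to 83.3, 78.4 and 82.8 TPM at 12 h. The 8 h and 12 h IFN groups overlapped, unlike those of HLA-B, HLA-C and B2M. The log2 changes with IFN were 3.86 and 3.57 (SE 0.22; limma adjusted p = 2.2e-11 and 8.0e-11). After siBOP1, NLRC5 was at 4.78, 8.37 and 5.54 TPM and 4.66, 6.92 and 4.87 TPM in mock, and at 99.1, 84.6 and 84.0 TPM and 81.3, 92.9 and 87.0 TPM with IFN. These changes were 3.67 and 3.78 (limma adjusted p = 4.8e-11 and 2.9e-11).

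**Figure D3:**
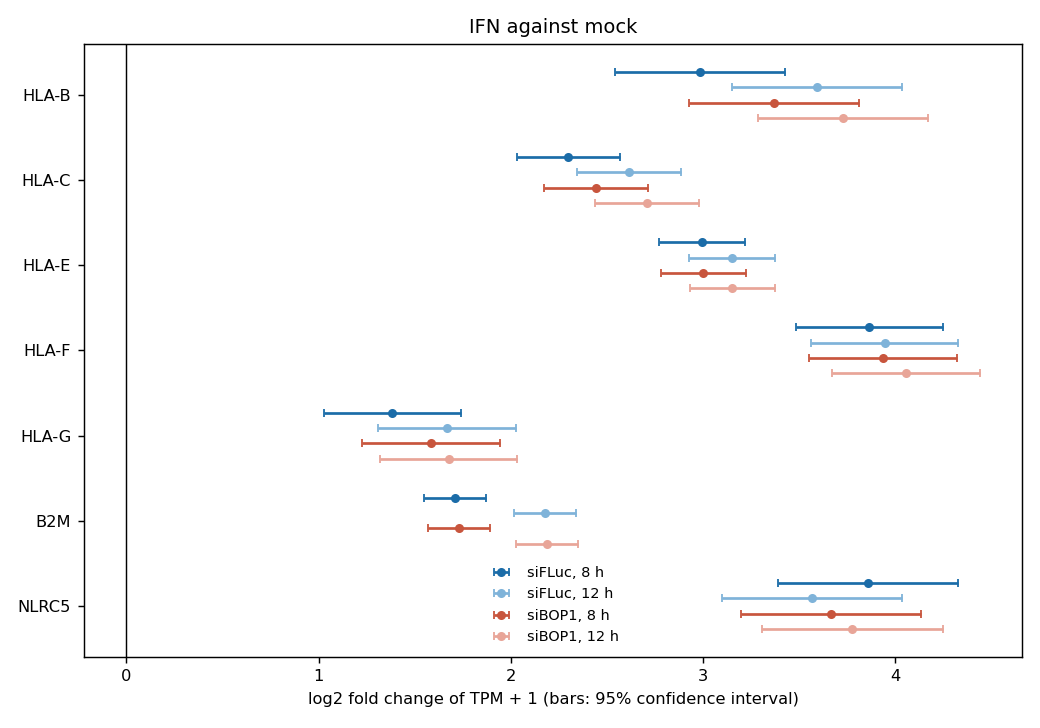
Change of each member with IFN against mock, as log2 fold change of TPM + 1 on the x axis with its 95% confidence interval from limma, for each siRNA and time. All 28 intervals lie above 0; HLA-F and NLRC5 lie farthest to the right and HLA-G and B2M nearest to 0.

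The order of the members by mean TPM in siFLuc mock cells at 8 h was B2M, HLA-C, HLA-B, HLA-E, HLA-F, NLRC5 and HLA-G. In that group HLA-B and HLA-E overlapped, as did HLA-F and NLRC5, so those neighbours do not differ beyond their spread, whereas HLA-C stood clear of HLA-B. HLA-F and NLRC5 also overlapped with IFN at 8 h in siFLuc cells, but at 12 h every HLA-F library lay above every NLRC5 library. HLA-C lay above HLA-B in 12 of 12 mock libraries. With IFN this pair changed places: HLA-B lay above HLA-C in 0 of 3 siFLuc libraries at 8 h, 1 of 3 siBOP1 libraries at 8 h and 3 of 3 libraries of either siRNA at 12 h. The full order of a library matched that of its group means in 17 of 24 libraries.

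The make-up of the heavy-chain transcripts differed between mock and IFN. The summed TPM of the 5 heavy chains was 176 ± 28.9 (SD, n = 3) in siFLuc mock cells at 8 h, 1186 ± 145 with IFN at 8 h and 1746 ± 208 with IFN at 12 h. HLA-B made up 25.7% ± 5.64 of that sum in mock at 8 h, 30.1% ± 1.23 with IFN at 8 h and 35.3% ± 0.831 with IFN at 12 h. HLA-C went from 48.3% ± 2.94 to 35.4% ± 1.58 and 33.7% ± 0.546, with no overlap between mock and either IFN group. HLA-F went from 3.00% ± 0.217 to 7.62% ± 0.723 and 7.82% ± 0.0805. The ratio of HLA-B to HLA-C, which no rescaling of a library can alter, ranged from 0.415 to 0.686 in siFLuc mock libraries at 8 h, from 0.787 to 0.921 with IFN at 8 h, and from 1.02 to 1.10 with IFN at 12 h. In siBOP1 cells it ranged from 0.504 to 0.547 in mock at 8 h, from 0.966 to 1.11 with IFN at 8 h and from 1.04 to 1.17 with IFN at 12 h. At 8 h with IFN the siBOP1 ratios lay above all siFLuc ratios.

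**Figure D4:**
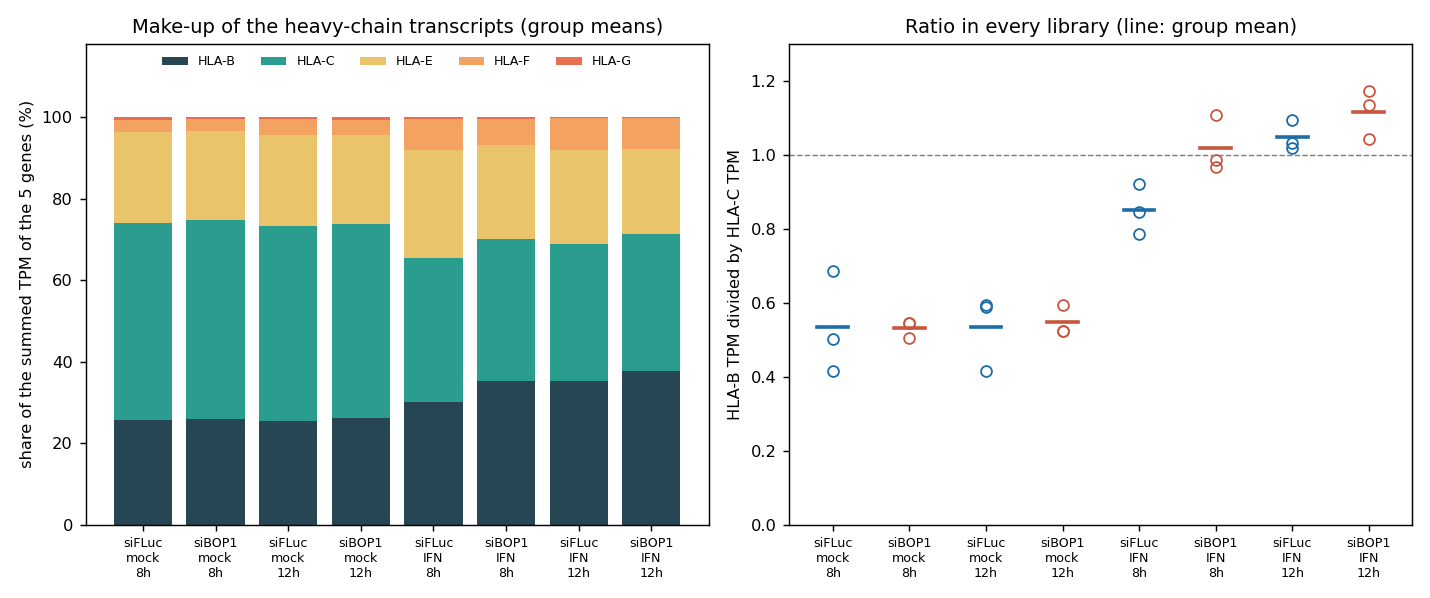
Left, mean share of the summed TPM of 5 heavy chains that each contributes, per group of 3 libraries; right, HLA-B TPM divided by HLA-C TPM in every library, with the group mean as a line. HLA-C takes 48.3% of the sum in siFLuc mock cells at 8 h and 33.7% with IFN at 12 h, and the ratio passes 1 (dashed line) in all 6 IFN libraries at 12 h.

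B2M rose by a smaller factor than the summed heavy chains. B2M stood at 5.19 ± 0.814 times the heavy-chain sum in siFLuc mock cells at 8 h and at 2.52 ± 0.479 times with IFN, and at 12 h the ratio went from 4.38 ± 0.734 to 2.25 ± 0.051. The siBOP1 ratios went from 5.23 ± 0.375 to 2.25 ± 0.154 at 8 h and from 4.55 ± 0.296 to 2.23 ± 0.279 at 12 h. Mock and IFN libraries did not overlap in this ratio in any of the 4 settings. B2M mRNA nevertheless stayed above the summed heavy chains in every group.

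With the replicate block described below, 3 of 7 members were called higher in siBOP1 cells with IFN at 8 h. In the main fit, which has no block, BOP1 knockdown alone or with IFN moved no member past the threshold. In siBOP1 against siFLuc cells 0 of 7 members were called in each of the 4 comparisons, while of all tested genes 2.16% at 8 h and 1.6% at 12 h were called in either direction in mock cells, against 2% at 8 h and 0.66% at 12 h in IFN-treated cells. At an unadjusted p under 0.05 the members counted 1, 1, 3 and 1, and the genes overall 2076, 2051, 2191 and 1444. The members' median log2 difference was 0.21, 0.13, 0.18 and 0.21, against 0.03, 0.00, -0.01 and -0.01 over all genes. Point estimates were above 0 for 6, 6, 7 and 7 of the 7 members.

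The size of the difference was greatest for HLA-B with IFN at 8 h, where the siBOP1 mean was 1.53 times the siFLuc mean. The log2 difference was 0.62 (95% interval 0.18 to 1.06) with a limma adjusted p of 0.154. HLA-B then differed by 0.32 at 12 h with IFN (adjusted p = 0.762) and by 0.23 and 0.18 in mock. For HLA-C the difference was 0.36 with IFN at 8 h (interval 0.09 to 0.63; limma adjusted p = 0.187), and the groups overlapped. B2M differed by 0.22, 0.20, 0.24 and 0.21 in the 2 mock and then the 2 IFN comparisons, with limma adjusted p of 0.179, 0.258, 0.125 and 0.338. Its siBOP1 and siFLuc libraries did not overlap in any of these 4 comparisons, and its siBOP1 means were 1.15 to 1.18 times the siFLuc means. How many of all genes showed no overlap was not counted, so the lack of overlap has no background. In mock at 12 h the gap was narrow, with the lowest siBOP1 library at 944 TPM and the highest siFLuc library at 943 TPM. NLRC5 differed by 0.24, -0.12, 0.05 and 0.09, and its 95% interval with IFN at 8 h ran from -0.42 to 0.52.

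Libraries of one time that carry the same number deviated together from their group means, so the blocked values are given here. With the library number as a replicate block within each time, 3 of 7 members were called higher in siBOP1 cells with IFN at 8 h, where 8.81% of all genes were then called in either direction. These were HLA-B (0.62, limma adjusted p = 0.0158), HLA-C (0.36, adjusted p = 0.0116) and B2M (0.24, adjusted p = 0.0483). The block called 0 of 7 in the other 3 siBOP1 comparisons, where it called 8.49% (mock, 8 h), 7.66% (mock, 12 h) and 3.77% (IFN, 12 h) of all genes. By library number, siBOP1 exceeded siFLuc in 12 of 12 pairs for HLA-C, HLA-E and B2M and in 10 of 12 for HLA-B and HLA-G. It did so in 9 of 12 for HLA-F and in 6 of 12 for NLRC5. Such pairs were not counted over all genes, so these counts have no background.

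**Figure D5:**
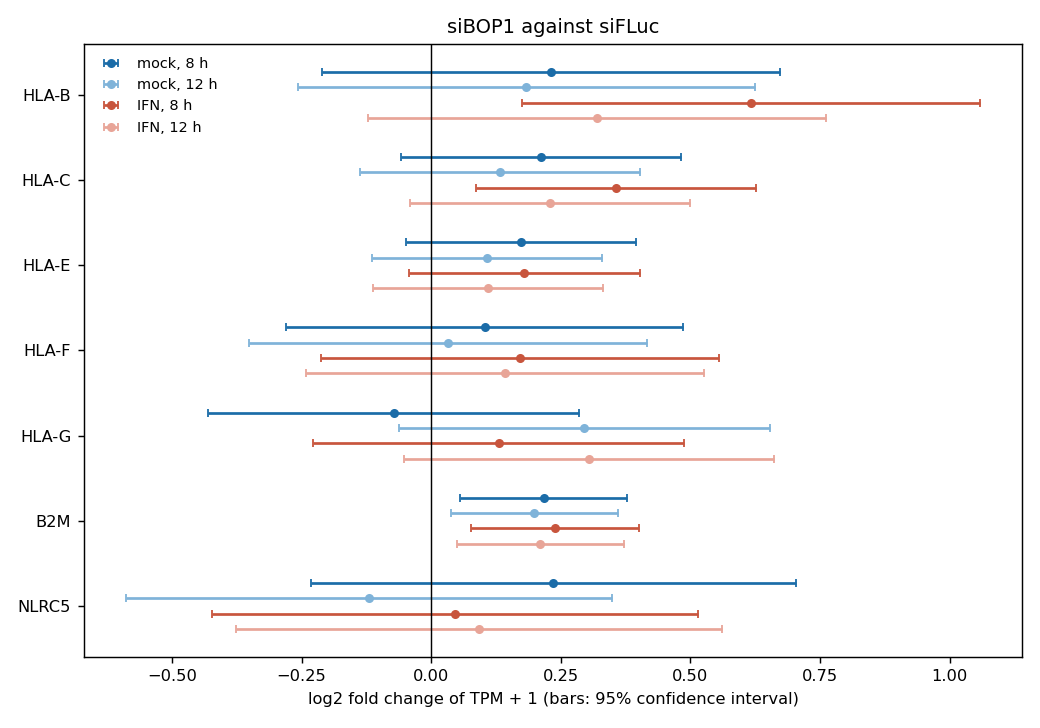
Difference of each member between siBOP1 and siFLuc cells, as log2 fold change of TPM + 1 on the x axis with its 95% confidence interval from limma without a block, in 4 treatment and time settings. All 4 B2M intervals and the HLA-B and HLA-C intervals with IFN at 8 h exclude 0 before adjustment; no difference passed the adjusted threshold.

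The response to IFN was not shown to differ with BOP1 knockdown. The siRNA by IFN interaction, the IFN change in siBOP1 cells minus that in siFLuc cells, called 0 of 7 members and 0% of all genes at both times. At an unadjusted p under 0.05 it held 0 members at either time, and 353 genes at 8 h and 259 at 12 h. For HLA-B the interaction was 0.39 at 8 h (95% interval -0.24 to 1.01) and 0.14 at 12 h (-0.49 to 0.76). For B2M it was 0.02 (-0.21 to 0.25) and 0.01 (-0.22 to 0.24), and for NLRC5 -0.19 (-0.85 to 0.47) and 0.21 (-0.45 to 0.87). Every interval includes 0, and that of B2M is the narrowest of these 3.

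In siFLuc cells HLA-B, HLA-C and B2M were called higher after 12 h than after 8 h of IFN, and NLRC5 did not pass the test. Of these calls only that of B2M held whichever library was left out. HLA-B was 1.73 times as high at 12 h as at 8 h (log2 0.79, SE 0.21, limma adjusted p = 0.0437), HLA-C 1.40 times (0.49, adjusted p = 0.0421) and B2M 1.33 times (0.41, adjusted p = 0.00695). This is 3 of 7 members called higher, where 2.83% of all genes were. HLA-E (log2 0.34, limma adjusted p = 0.0767) and HLA-F (0.60, adjusted p = 0.0761) did not pass. Their 8 h and 12 h libraries did not overlap, which was not counted over all genes. HLA-G differed by 0.05 and NLRC5 by -0.08, each with overlapping groups. In siBOP1 cells only B2M passed (0.38, limma adjusted p = 0.00998), 1 of 7 members against 2.45% of all genes called higher. There HLA-B differed by 0.49, HLA-C by 0.36, HLA-E by 0.27, HLA-F by 0.57, HLA-G by 0.22 and NLRC5 by -0.03. Over all genes the median change between the times was 0.09 in either siRNA, and under median-of-ratios rescaling, which brings that median to 0.01 and -0.01, 0 of 7 members passed in either. Leaving out any 1 library gave 1 or 2 members in siFLuc cells and 0 or 1 in siBOP1 cells. The count was 0 without the siBOP1 IFN library numbered 2 at 12 h. It was 1 in siFLuc cells without number 2 or 4 at 8 h or number 1 or 2 at 12 h. Of the 6 such fits in siFLuc cells, B2M was called in 6, HLA-C in 2 and HLA-B in 0 (limma adjusted p = 0.0504 to 0.161 for HLA-B).

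The test of whether the IFN change itself differed between 12 and 8 h called 0 of 7 members in either siRNA, with 0.00623% of all genes called in siFLuc cells and 0% in siBOP1 cells. For B2M the difference was 0.47 in siFLuc cells (95% interval 0.24 to 0.70; limma adjusted p = 0.742) and 0.46 in siBOP1 cells (0.23 to 0.69; limma adjusted p = 1). B2M was the one member at an unadjusted p under 0.05 in either siRNA, where 575 and 603 genes were. For HLA-B the differences were 0.61 (-0.01 to 1.23) and 0.36 (-0.26 to 0.98), and for NLRC5 -0.29 (-0.95 to 0.37) and 0.11 (-0.55 to 0.77).

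Genes that make the peptides rose with IFN mainly in the subunits specific to the immunoproteasome and in the proteasome activator PA28. Of 8 genes for peptide supply, 5 were called higher in siFLuc cells at 8 h and 6 in each of the other 3 comparisons. The share over all genes was 5.77% to 7.17%. Median log2 changes of the list were 1.46, 1.68, 1.56 and 1.74. PSMB9, an immunoproteasome catalytic subunit, went from 10.9 to 182 TPM at 8 h in siFLuc cells (3.96, limma adjusted p = 9.6e-15). PSMB8 went from 28.98 to 206 TPM (2.79), PSMB10 from 42.5 to 159 TPM (1.88), and PSME2, a subunit of the PA28 proteasome activator, from 213 to 656 TPM (1.62). Of the constitutive catalytic subunits, PSMB5 was called lower once, in siBOP1 cells at 12 h (-0.27, limma adjusted p = 0.0343), where 7.58% of all genes were called lower, and PSMB6 in no IFN comparison. With the replicate block PSMB5 was called lower in all 4 IFN comparisons, by -0.16 to -0.27, where 12.7% to 20.4% of all genes were called lower. PSMB7 was called higher in 3 of 4, by 0.38 at most.

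Peptide transport and loading genes were called higher for 6, 7, 6 and 7 of 9, against 5.77% to 7.17% of all genes. Their median log2 changes were 1.59, 1.58, 1.33 and 1.82. TAP1, a subunit of the peptide transporter, went from 16.4 to 324 TPM in siFLuc cells at 8 h (4.23, limma adjusted p = 1.5e-16), and TAP2, its partner, from 18.4 to 148 TPM (2.93). The aminopeptidase ERAP2, which trims peptides in the endoplasmic reticulum, went from 1.83 to 9.77 TPM (1.93), and TAPBPL, a tapasin-related peptide editor, from 4.41 to 15.5 TPM (1.61). CANX, a general chaperone, and PDIA3, a disulfide isomerase, were called in no IFN comparison without the replicate block. With it PDIA3 was called higher at 12 h with either siRNA (0.26 in siFLuc and 0.28 in siBOP1 cells; limma adjusted p = 0.00753 and 0.00421) and CANX at 12 h in siFLuc cells (0.19, limma adjusted p = 0.0365), where 11.2% and 11.4% of all genes were called higher in siFLuc and siBOP1 cells. In siBOP1 against siFLuc mock cells at 8 h, 2 of the 9 were called higher where 1.49% of all genes were. These were TAPBP, which encodes tapasin (39.5 to 57.8 TPM; 0.53, limma adjusted p = 0.0482), and CANX (510 to 644 TPM; 0.34, adjusted p = 0.0479). With the replicate block, 4 of the 9 were called higher in that comparison, against 5.91% of all genes. The other 3 siBOP1 comparisons called 0 of the 9 without the block. Over all genes the block called 4.31% higher and 3.35% lower in mock at 12 h, 4.97% and 3.84% with IFN at 8 h, and 2.16% and 1.61% with IFN at 12 h. Of the 9, it called 2 higher and 1 lower in mock at 12 h, 3 higher and 1 lower with IFN at 8 h, and 0 higher and 1 lower with IFN at 12 h. The gene called lower each time was CALR, the chaperone calreticulin (-0.18 to -0.22).

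Among 15 genes for factors of the class I promoter, the same count, 7, was called higher in each of the 4 IFN comparisons. This compares with 5.77% to 7.17% of all genes. The median log2 change of the 15 was 0.28, 0.50, 0.21 and 0.24. STAT2 went from 7.51 to 156 TPM in siFLuc cells at 8 h (4.21, limma adjusted p = 1.5e-14), IRF9 from 20.7 to 163 TPM (2.95) and IRF1 from 28.96 to 236 TPM (2.98). RFX5, the DNA-contacting subunit of the RFX complex, rose less, from 31.4 to 61.8 TPM (0.95, limma adjusted p = 8.3e-06). Its partners RFXAP and RFXANK, the 3 NF-Y subunits, CREB1 and ATF1 were called in no IFN comparison, except that the replicate block called RFXAP lower in siFLuc cells at 8 h (-0.62, limma adjusted p = 0.0226). siBOP1 against siFLuc called 0 of the 15 in the 4 comparisons without the block. With it RFX5 was called lower in siBOP1 cells at 8 h, both in mock (-0.45, limma adjusted p = 0.015) and with IFN (-0.41, adjusted p = 0.0243).

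Of the class II genes, CIITA, CD74 and HLA-DRA were low in these cells, while HLA-DMA and HLA-DMB reached 1 TPM in every library. CIITA, the class II counterpart of NLRC5, had group means from 0.0713 to 0.966 TPM. HLA-DRA was at 0.293 TPM or less in every group mean and was not tested, and 4 of 12 class II genes were tested. Of these, CIITA reached 1 TPM in 0 of 12 mock and 3 of 12 IFN libraries, and CD74, the invariant chain, in 0 of 12 mock and 10 of 12 IFN libraries. Both passed the filter only through IFN libraries, where they had to be high, so their IFN levels are given with no test. CD74 went from 0.131 to 1.15 TPM at 8 h and from 0.316 to 3.24 TPM at 12 h in siFLuc cells. With IFN at 8 h CD74 was at 3.42 TPM in siBOP1 and 1.15 TPM in siFLuc cells, also given with no test. HLA-DMB, a chain of the class II peptide editor HLA-DM, was higher in siBOP1 than in siFLuc cells with IFN at 8 h. It was at 11.7 against 6.34 TPM (log2 difference 0.78, limma adjusted p = 0.0425), where 1.25% of all genes were called higher. In mock at 12 h HLA-DMB was also higher in siBOP1 cells (14.7 against 7.66 TPM, log2 difference 0.86, limma adjusted p = 0.0294), where 0.903% of all genes were called higher. With the replicate block it was called higher in all 4 siBOP1 comparisons. With IFN, HLA-DMB was called lower in siBOP1 cells at 12 h (14.7 to 9.40 TPM; -0.60, limma adjusted p = 0.0437), and HLA-DMA, its partner, was called in none of these 8 comparisons.

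Outside the 7 members, the genes most like each member were named by Pearson r of log2(TPM + 1) over the 24 libraries among 10599 genes. With mock and IFN libraries far apart, any strongly induced gene scores high, so these r describe a shared step and carry no test. HLA-B was closest to CTSS (r = 0.995), which encodes cathepsin S, then TYMP and PSME1. HLA-C was closest to PSME1, IFITM3 and IFITM2, HLA-E to LAP3, LGALS9 and IFI35, and HLA-F to LGALS9, IFI27 and STAT2. HLA-G was closest to IFITM3, PSME2 and PSMB10, and B2M to PSME2, IFITM2 and LY6E. NLRC5 was closest to IFIH1, SLC15A3 and CMPK2 (r = 0.992, 0.992 and 0.991). Among the class I genes and B2M, r between members ran from 0.967 to 0.997, and HLA-B and HLA-C were the closest pair, each nearer to the other than to any gene named above. NLRC5 reached 0.956 to 0.985 with the other 6, and its rank among all genes by likeness to a member ran from 117 (for HLA-E) to 176 (for HLA-G).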

How the data were processed

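Polyadenylated RNA of 24 A549 libraries was measured after TRIzol extraction and a stranded mRNA library kit, per the labels' protocols. The deposited table gives TPM values, scaled by the authors to the same total in each library; aligner, quantification tool, genome build and annotation are not given in the sources used here. Rows were matched to symbols by Ensembl ID. Column names matched labelled replicates for 16 columns; 8 columns numbered 4 matched a group only.

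Tests were run on log2(TPM + 1) by limma (version 3.58.1, R 4.3.3; eBayes with trend, 1 mean per group, all 24 libraries). The filter was 1 TPM in at least 3 libraries, and Benjamini-Hochberg adjustment ran over 16062 genes per comparison with a threshold of 0.05. BOP1 was compared by exact permutation in SciPy 1.17.1. The limma script was tested on simulated data. Deviations of same-numbered libraries within a time correlated at 0.115 to 0.508 over 24 values, which are the sole basis for the pairing. These cover pairs of groups that differ in siRNA alone or in treatment alone, and other pairs within a time were not computed. Between times, computed for IFN groups only, the correlation was -0.113 to 0.167. Alternatives changed the pseudocount, filter, scaling, trend, block and libraries. Members and lists were chosen with earlier results of these data known. Named genes were the members, the 3 genes most like each by r (mean of at least 5 TPM), up to 4 genes per list with the largest IFN change among those called in all 4 IFN comparisons, and a few fixed ones (CIITA, RFX5, IRF1, TAP1, PSMB9, HLA-DRA and BOP1); some genes the rule or lists hold are not reported here. List genes outside this rule (PSMB5, PSMB6, PSMB7, TAPBP, CANX, CALR, PDIA3, HLA-DMA, HLA-DMB, the factors not called and the marker genes) were named after their values were seen.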

Additional observations from a re-analysis of the deposited data

How the results depend on the processing

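All 444 recomputed IFN values of the 7 members kept direction and call (highest limma adjusted p 0.00795); a filter at a mean of 5 TPM leaves HLA-G untested. The limma adjusted p for BOP1 was 1.20e-05, 3.05e-06, 1.60e-05 and 1.47e-05 (mock 8 and 12 h, IFN 8 and 12 h). For siBOP1 with IFN at 8 h, 3 members were called with the replicate block by column number and 3 with the block on labelled numbers 1 and 2 only. The count was 1 after quantile normalization (B2M) and 1 with libraries 1 and 2 only (HLA-B). Of all genes these settings called 8.81%, 5.76%, 2.48% and 3.67% in either direction. In mock at 12 h the labelled block called 1 (B2M), where it called 3.07% of all genes. The labelled block also called 1 member, B2M, in the time by IFN interaction in siFLuc cells, where it called 0.0685% of all genes. For 12 against 8 h of IFN in siFLuc cells the count of members was 1 without the filter, 1 without trend and 0 after median of ratios. It was 0 with only the groups compared, 5 with the labelled block and 5 with libraries 1 and 2 only. In that order, these settings called 0.895%, 2.98%, 2.14%, 0.00623%, 4.05% and 3.18% of all genes higher. Leaving out a library gave 1 to 2 members. In siBOP1 cells the count was 0 after median of ratios, 0 with only the groups compared, 3 and 4 with the blocks and 4 with libraries 1 and 2 only. There 1.67% of all genes were called higher after median of ratios and 0.0311% with only the groups compared. The share was 5.5% with the block by column number, 4% with the labelled block and 3.51% with libraries 1 and 2 only. Leaving out a library gave 0 to 1 members. Numbers do not pair libraries across times. The block changed no other call of a member. Of 504 values of the other list genes it changed 56 calls, all called with the block only. The cause of these changes was not tested.

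Of 1187 recomputed values, 1113 kept direction and call, 28 reversed, 22 passed the threshold newly and 24 no longer passed. The recomputed values cover all members for IFN against mock and for 12 against 8 h of IFN. For siBOP1 against siFLuc they cover only HLA-B, HLA-C, B2M and NLRC5, and for the interactions only HLA-B, B2M and NLRC5. Reversals of the members left out there were not looked for. No reversed value had passed the threshold. Reversals outside leaving out a library were, for siBOP1 against siFLuc in mock at 12 h, HLA-B at -0.0235 with the labelled replicate block and with libraries 1 and 2 only. For the siRNA by IFN interaction at 12 h they were HLA-B at -0.00428 and B2M at -0.0403 after quantile normalization, and B2M at -0.145 with the labelled block and with libraries 1 and 2 only. For 12 against 8 h of IFN in siFLuc cells HLA-G was -0.0327 after median of ratios and -0.0793 after quantile normalization. Among the values recomputed, leaving out a library gave log2 ranges across 0 in 12 cases. For siBOP1 against siFLuc these were HLA-B -0.0669 to 0.482 (mock, 8 h) and -0.0511 to 0.319 (mock, 12 h), lowest without the siFLuc library numbered 4, and NLRC5 -0.412 to 0.163 (mock, 12 h) and -0.0305 to 0.167 (IFN, 8 h). For the siRNA by IFN interaction they were B2M -0.0520 to 0.0831 (8 h) and -0.0742 to 0.0585 (12 h), and NLRC5 -0.351 to 0.0132 (8 h) and -0.0702 to 0.504 (12 h). The rest were NLRC5 in the time by IFN interaction in siBOP1 cells (-0.0922 to 0.264), and for 12 against 8 h of IFN HLA-G (-0.129 to 0.238, siFLuc) and NLRC5 (-0.144 to 0.0418, siFLuc; -0.0804 to 0.0439, siBOP1).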

Other observations

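Of 14 class I like genes 11 were tested, and the number called higher with IFN was 1 with siFLuc and 2 with siBOP1 at 8 h, against 2 with siFLuc and 1 with siBOP1 at 12 h. Over all genes 5.77% to 7.17% were called higher. With the replicate block 4 were called higher in siFLuc and 3 in siBOP1 cells at either time, against 8.24% to 11.4% of all genes. RAET1E, among those 4 at 8 h, reached 1 TPM in 1 of 12 mock and 5 of 12 IFN libraries. MR1, which presents vitamin B metabolites, was called higher in 3 of the 4 comparisons, and in all 4 with the block. Its largest difference was in siBOP1 cells at 8 h, from 8.86 ± 0.922 to 14.5 ± 2.54 TPM (SD, n = 3; log2 difference 0.64, SE 0.15, limma adjusted p = 0.00586). MICA, a ligand of the NKG2D receptor, was at 34.9 ± 10.3 TPM in siFLuc mock cells and 30.1 ± 8.41 TPM with IFN at 8 h. MICA was called in no IFN comparison without the block and lower in 3 of 4 with it, by -0.34 to -0.56, where 15.8% to 20.4% of all genes were called lower.

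With siBOP1 against siFLuc, 2 class I like genes in mock at 8 h, 1 in mock at 12 h, 1 with IFN at 8 h and 0 with IFN at 12 h were called higher. The shares over all genes were 1.49%, 0.903%, 1.25% and 0.392%. With the block the counts of class I like genes were 3, 2, 4 and 2, against 5.91%, 4.31%, 4.97% and 2.16% of all genes. FCGRT, the neonatal Fc receptor and a partner of B2M, was at 19.1 ± 0.592 TPM in siFLuc and 36.9 ± 6.14 TPM in siBOP1 mock cells at 12 h (log2 difference 0.91, SE 0.15, limma adjusted p = 0.00239). RAET1E, MR1, MICA and FCGRT were chosen after their values were seen.

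Of 13 class I pseudogenes 5 were tested. HLA-H was at 11.3 ± 1.77 TPM in siFLuc mock cells at 8 h and 28.7 ± 1.18 TPM with IFN (SD, n = 3; log2 difference 1.29, SE 0.16, limma adjusted p = 3.07e-06). HLA-L, at 1.08 ± 0.546 TPM in those mock cells, was at 4.20 ± 0.973 TPM with IFN (log2 difference 1.34, SE 0.26, limma adjusted p = 0.00121). HLA-J and HLA-V reached 1 TPM in 0 of 12 mock libraries and passed the filter only through IFN libraries, so no count over the pseudogenes is given. How reads shared with intact class I genes were assigned is not given in the sources used here.

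Of 12 other NLR genes 3 were tested. NOD1, a sensor of bacterial peptidoglycan, was called higher in all 4 IFN comparisons, from 3.05 ± 0.845 to 7.59 ± 1.58 TPM in siFLuc cells at 8 h (log2 difference 1.09, SE 0.19, limma adjusted p = 0.00038). NLRX1 was called in none of the 4, with or without the block. NLRP2 was called in none without the block and lower in 3 of 4 with it, by -0.24 to -0.29, where 15.8% to 20.4% of all genes were called lower. NLRX1 and NLRP2 were named as the remaining genes tested.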
